A study of Mus musculus with 6 samples.

Results

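The 10 genes of bone morphogenetic protein (BMP) signalling described here were Bambi, Rgmb, Bmpr1a, Bmpr2, Smad1, Smad5, Smad6, Smad7, Id1 and Id3, out of 55414 genes in the count table. Bambi and Rgmb were chosen by their counts, which were lower in the zinc depleted libraries, so their difference between diets is given as a description and without a test. The other 8 were taken as receptors, signal transducers, inhibitors and targets of the same pathway, to see whether they moved with Bambi and Rgmb in each library. Paneth cells, the antimicrobial secretory cells of the crypt base, were sorted by FACS out of the small intestine of wild-type mice (C57BL/6J in the study's methods) and their RNA was sequenced. Mice ate either standard chow or zinc depleted chow ad libitum for 7 weeks, and every mouse, on either diet, received tumor necrosis factor (TNF) for the last 3 hours. Each diet has 3 labelled libraries here, although the design text counts 4 replicates a group. In the methods each library of this kind comes from an individual mouse, whose age is not stated, and no library without TNF was used.

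BMPs are secreted ligands that bring together type I receptors such as Bmpr1a and type II receptors such as Bmpr2. The receptors phosphorylate Smad1 and Smad5, which join Smad4 and switch on targets such as Id1, Id3 and the pathway's own inhibitors Smad6 and Smad7. Bambi is a receptor-like membrane protein without a kinase domain that dampens BMP and TGF-beta signals, and Rgmb is a membrane-anchored co-receptor that binds BMPs and the receptor neogenin. In the small intestine BMP activity is low at the crypt base, where Paneth and stem cells lie, and high towards the villus.

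Total counts ran from 6139397 to 12772373 per library. Levels are given as CPM (counts relative to the library's total) scaled by TMM, edgeR's trimmed mean method, whose factors ran from 0.460 to 1.73, and a count of 0 allows a level of up to 0.206 to 0.631 depending on the library. Standard diet replicate 3 stood apart from its group, as its log2 CPM correlated with the zinc depleted libraries at Pearson r of 0.896 to 0.924 across genes and with the other standard diet libraries at 0.858 to 0.871. Zinc depleted replicate 1 stood apart as well, at 0.884 and 0.907 with standard diet replicates 2 and 3 and at 0.860 and 0.783 with zinc depleted replicates 2 and 3. All 8 Paneth cell markers checked, among them Lyz1 and Mmp7, had counts, and they took 41.6% to 56.3% of all counts. Across the 9749 genes tested edgeR called 0% at an adjusted p under 0.05, with 645 genes at an unadjusted p under 0.05, while DESeq2 called 10 and limma-voom 0. Leaving out 1 library moved the 645 to between 143 (without standard diet replicate 1) and 2420 (without zinc depleted replicate 1), with 282 without standard diet replicate 2, 1552 without standard diet replicate 3 and 315 without zinc depleted replicate 2. The p-values measure only the spread between these libraries.

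Because DNA motifs bound by SMAD proteins mark many BMP targets, the members' RefSeq promoter windows (250 bases before and 50 after a start site) were searched for the palindrome GTCTAGAC and the GC-rich motif GGCGCC. Both read the same on either strand and neither overlaps the other. Windows were scanned for 7 of the 10 members, 11 windows in all, placed on GRCm39 by exact match, and 5 of the 7 genes held either motif. GGCGCC was in 5 of the 11 windows, from 4 genes, of which Smad5 has a pair of overlapping windows with the same site, and the palindrome was in 1. Among all 32851 windows 11.9% held GGCGCC and 0.213% the palindrome, and among all 27025 genes 13.4% and 0.248% had at least 1 such window. The 30 bases around each match are shown to compare the sites, with the motif in capitals and each in an untranslated exon of at least 1 GENCODE transcript.
Smad6 (chr9:63929327-63929356, minus strand): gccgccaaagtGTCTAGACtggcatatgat
Rgmb (chr17:16051331-16051360, minus strand): ggcggcgtgaaaGGCGCCtttgtgcaagcc
Bmpr1a (chr14:34224684-34224713, minus strand): tgcgcgcgcgccGGCGCCtcttgctcgccc
Bmpr2 (chr1:59803321-59803350, plus strand): ctccggcggccgGGCGCCgctgcctgcccc
Smad5 (chr13:56850834-56850863, plus strand): ccccggcgagcgGGCGCCgagcgcttgtcc
The palindrome was found in Smad6, starting 4 bases before its RefSeq start site, and in no other member scanned. The windows of Id3 and Smad1 held neither motif. Rgmb has several start sites, and the 250 bases before the one nearest to the 5' end of the gene (chr17:16051509-16051758, minus strand), shown since Rgmb is one of the genes the results turn on, held neither motif.
Rgmb upstream: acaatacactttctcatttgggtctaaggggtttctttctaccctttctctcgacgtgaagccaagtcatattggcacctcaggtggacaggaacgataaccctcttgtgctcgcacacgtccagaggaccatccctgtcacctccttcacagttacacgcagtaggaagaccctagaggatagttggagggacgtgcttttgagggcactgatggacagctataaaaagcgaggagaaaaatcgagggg
A match describes these letters in these windows and not the binding of any factor.

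Bambi, the pseudoreceptor, had 1094, 603 and 72 counts in standard diet replicates 1, 2 and 3, and 62, 50 and 27 counts in zinc depleted replicates 1, 2 and 3. As TMM-scaled CPM these were 86.4, 65.3 and 8.04 on standard chow against 4.26, 10.5 and 4.60 on zinc depleted chow. Standard diet replicates 1 and 2 were far above the others, and the third standard diet library lay within the range of the zinc depleted libraries. By total counts alone it lay just above them, at 7.22 CPM against 6.20, 6.73 and 2.11, so that the groups did not overlap on that scale. There, 10.3% of all genes tested were lower on zinc depleted chow without overlap. The mean was 53.2 ± 40.5 (SD, n = 3) on standard chow and 6.46 ± 3.52 (SD, n = 3) on zinc depleted chow. The fitted log2 fold change was -3.07, a description only, since Bambi was chosen for being lower. Within the standard diet group alone, replicate 1 was 10.7-fold and replicate 2 8.12-fold above replicate 3. In sorted cells measured in bulk, fewer cells of a type that expresses Bambi and less Bambi RNA per cell cannot be told apart. Bambi (GRCm39 chromosome 18, 3507871 to 3516404, plus strand) is a gene of 3 exons.

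Rgmb (chromosome 17, 16022655 to 16051513, minus strand), the co-receptor, had 651, 413 and 99 counts on standard chow and 143, 31 and 22 on zinc depleted chow. Its TMM-scaled CPM were 51.4, 44.7 and 11.1 against 9.82, 6.52 and 3.75. The groups did not overlap on this scale, but standard diet replicate 3 lay just above zinc depleted replicate 1, and by total counts alone they overlapped, with 9.92 CPM in the former and 14.3 CPM in the latter. Means were 35.7 ± 21.6 and 6.70 ± 3.04 (SD, n = 3 each), a log2 fold change of -2.40, again a description only. Standard diet replicates 1 and 2 were 4.65-fold and 4.05-fold above replicate 3. Without standard diet replicate 3 the log2 fold changes were -3.53 for Bambi and -2.77 for Rgmb. Without standard diet replicate 1 they were -2.52 and -2.04. Among all genes tested, 6.58% did not overlap in TMM-scaled CPM with the zinc depleted group lower, and 3.51% with it higher.

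**Figure D1:**
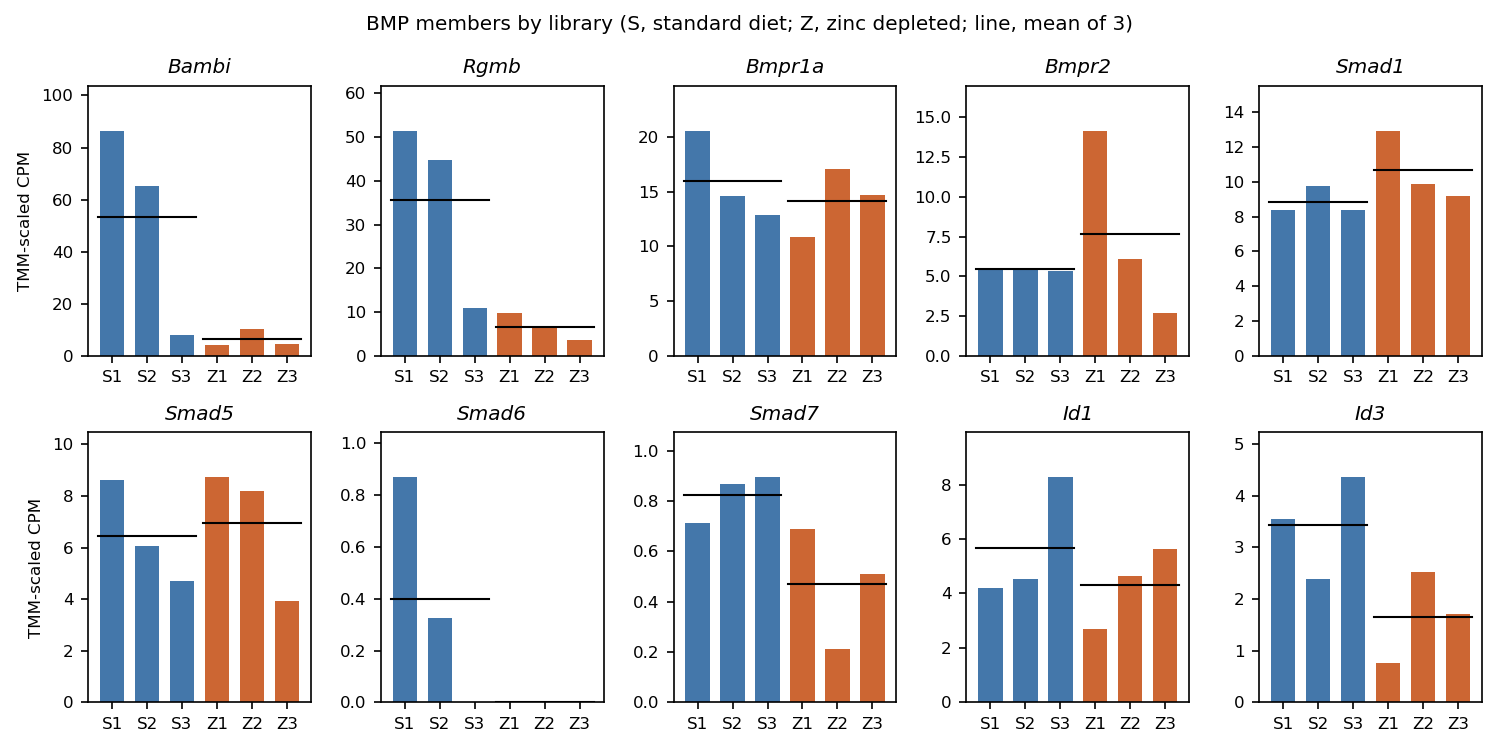
TMM-scaled CPM of each of the 10 members (y axis, linear, each panel with its own scale) in the 3 standard diet and the 3 zinc depleted libraries (x axis), with 1 bar per library starting at 0 and a line at the mean of each diet. Bambi and Rgmb stand high in standard diet replicates 1 and 2 and low in the other 4 libraries, while Bmpr1a, Smad1 and Smad5 have no such step.

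The receptors did not show this pattern. Bmpr1a (chromosome 14, 34132687 to 34225379, minus strand), the type I receptor, had TMM-scaled CPM of 20.5, 14.6 and 12.8 on standard chow and 10.8, 17.0 and 14.6 on zinc depleted chow, from 81 to 260 counts. The groups overlapped, and edgeR's quasi-likelihood test gave a log2 fold change of -0.18 with SE 0.37 (Benjamini-Hochberg adjusted p = 0.892). Bmpr2 (chromosome 1, 59802544 to 59918173, plus strand), the type II receptor, had 5.53, 5.52 and 5.36 on standard chow and 14.1, 6.10 and 2.72 on zinc depleted chow. The standard diet libraries were close to each other, and zinc depleted replicate 1 was high and replicate 3 low, 5.19-fold apart. The log2 fold change of Bmpr2 was 0.51 (adjusted p = 0.788 with edgeR, SE 0.54), and it was -0.31 without zinc depleted replicate 1, which stood apart from its group across genes. In standard diet replicate 1 the receptors were 1.60-fold (Bmpr1a) and 1.03-fold (Bmpr2) the level of replicate 3, beside the 10.7-fold of Bambi.

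Smad1 varied least of the tested members and Smad5 did not separate the diets. Smad1 (chromosome 8, 80065023 to 80126168, minus strand), a receptor-activated SMAD, had TMM-scaled CPM of 8.37, 9.74 and 8.37 on standard chow and 12.9, 9.89 and 9.19 on zinc depleted chow. Its highest library was 1.54-fold its lowest, against 20.3-fold for Bambi and 13.7-fold for Rgmb, and its log2 fold change was 0.28 (adjusted p = 0.827 with edgeR, SE 0.36). Smad5 (chromosome 13, 56850797 to 56890190, plus strand), the second receptor-activated SMAD, had 8.60, 6.06 and 4.69 against 8.72, 8.20 and 3.92, overlapping groups with a log2 fold change of 0.11 (adjusted p = 0.948 with edgeR, SE 0.45). With scaling by total counts alone, both turned to negative values, -0.32 for Smad1 and -0.51 for Smad5. That scaling moved the median of all genes to -0.66, and relative to that median Smad1 was 0.35 and Smad5 0.15.

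The inhibitory SMADs were near the limit of detection and did not pass edgeR's filter on low counts. Smad6 (chromosome 9, 63860341 to 63929793, minus strand), the gene with the palindrome shown above, had 11, 3 and 0 counts on standard chow and 0 counts in each zinc depleted library. The 11 counts of standard diet replicate 1 have a 95% exact Poisson interval of 0.433 to 1.55 TMM-scaled CPM, and that of the 0 counts in the third standard diet library reaches 0.412. Smad6 was thus seen in the libraries in which Bambi was high, but at counts so low that a difference between diets was not detectable at this depth. Smad7 (chromosome 18, 75500374 to 75529006, plus strand), which blocks both branches of the TGF-beta family, had 9, 8 and 8 counts against 10, 1 and 3. Its TMM-scaled CPM of 0.710, 0.866 and 0.893 against 0.687, 0.210 and 0.511 did not overlap, yet the interval of standard diet replicate 1, 0.325 to 1.35, covers the values of 2 zinc depleted libraries. These intervals cover counting error only.

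The target genes Id1 and Id3 encode inhibitors of basic helix-loop-helix transcription factors and are direct readouts of BMP signalling in many cells. Id1 (chromosome 2, 152566218 to 152579544, plus strand) had TMM-scaled CPM of 4.18, 4.55 and 8.26 on standard chow and 2.68, 4.63 and 5.62 on zinc depleted chow, a log2 fold change of -0.41 (adjusted p = 0.812 with edgeR, SE 0.48). Its highest value was in standard diet replicate 3, the standard diet library in which Bambi and Rgmb were lowest. Id3 (chromosome 4, 135870808 to 135873066, plus strand) had 3.55, 2.38 and 4.35 against 0.755, 2.52 and 1.70, from 10 to 45 counts. Zinc depleted replicates 1 and 3 were below every standard diet library and replicate 2 was not, and the log2 fold change of -1.11 (adjusted p = 0.681 with edgeR, SE 0.60) did not pass the threshold. In standard diet replicate 1, Id1 was 0.507-fold and Id3 0.816-fold the level of replicate 3. By total counts alone both targets were lower in every zinc depleted library, with Id1 at 7.22, 6.84 and 7.42 CPM against 3.90, 2.96 and 2.58, and Id3 at 6.13, 3.58 and 3.91 CPM against 1.10, 1.62 and 0.783. Among all genes tested 10.3% were lower without overlap on that scale, and relative to the shifted median the log2 fold changes were -0.52 for Id1 and -1.30 for Id3.

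Of the 8 members not picked for their level, 6 could be tested, of which 3 had a negative and 3 a positive log2 fold change, with a median of -0.04 and 0 called. Among all genes tested 50% were negative, so the direction of the 6 was that of the background. By total counts alone 5 of the 6 were negative, on a scale on which the median gene was at -0.66. Leaving out 1 library turned the sign of Bmpr1a (0.041 without standard diet replicate 1), Bmpr2 and Smad5 (-0.31 and -0.092 without zinc depleted replicate 1) and Id1 (0.0072 without standard diet replicate 3), and without zinc depleted replicate 1 there were 5 negative values. Smad1 and Id3 kept their sign, with Id3 between -1.50 and -0.69.

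**Figure D2:**
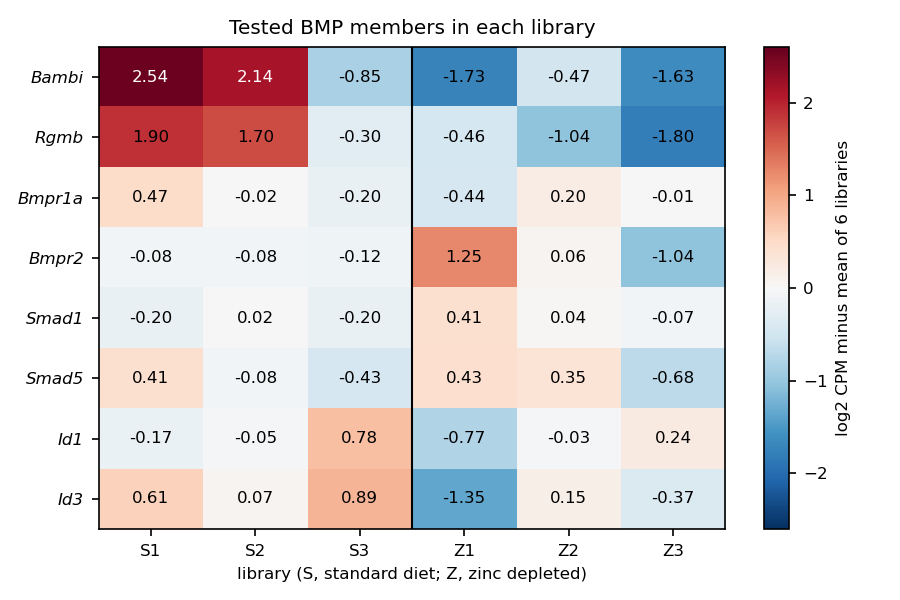
Heat map of the tested members (rows) in each library (columns, S for standard diet and Z for zinc depleted), with colour and printed value giving log2 CPM minus that gene's mean over the 6 libraries. Bambi and Rgmb lie at 2.54 and 1.90 in standard diet replicate 1 and at 2.14 and 1.70 in replicate 2, outside the range of the other 6 members in both.

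Library by library, the other 6 tested members did not share the high values of Bambi and Rgmb in standard diet replicates 1 and 2. On the log2 scale centred on each gene's own mean, Bambi and Rgmb were at 2.54 and 1.90 in standard diet replicate 1, where the others ranged from -0.20 (Smad1) to 0.61 (Id3). In standard diet replicate 2 they were at 2.14 and 1.70, and the others spanned only -0.08 to 0.07. In standard diet replicate 3 they were at -0.85 and -0.30, while Id3 reached its highest value of 0.89. The step from standard diet replicate 1 to 3, 10.7-fold for Bambi and 4.65-fold for Rgmb, was at most 1.84-fold among the 6 (Smad5). In zinc depleted replicate 1, Bambi was at -1.73 with Id3 at -1.35, but Bmpr2 was at 1.25, the widest spread of the 6 in any library. In zinc depleted replicates 2 and 3, Bambi was at -0.47 and -1.63 and Rgmb at -1.04 and -1.80, with the others between -0.03 and 0.35 in the former and between -1.04 (Bmpr2) and 0.24 (Id1) in the latter.

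Ratios of counts within a library do not depend on the scaling between libraries, so each other member except Smad6 was also set against Bmpr1a. There were 4.21, 4.47 and 0.626 Bambi counts per Bmpr1a count on standard chow and 0.392, 0.617 and 0.314 on zinc depleted chow, which did not overlap, although standard diet replicate 3 was just above zinc depleted replicate 2. For Rgmb the ratios were 2.50, 3.06 and 0.861 against 0.905, 0.383 and 0.256, which overlapped. The ratio of Bambi split the libraries like its scaled level, with standard diet replicates 1 and 2 apart from the other 4. From lowest to highest library, scaled Bmpr1a varied 1.89-fold and Bambi 20.3-fold, so this ratio largely repeats the counts by which Bambi was chosen. Id3 was at 0.173, 0.163 and 0.339 per Bmpr1a count against 0.0696, 0.148 and 0.116, lower without overlap. Standard diet replicate 2 was just above zinc depleted replicate 2, on 22 and 12 Id3 counts. The share of all genes without overlap in such ratios was not computed. The ratios of Smad1, Smad5, Smad7, Bmpr2 and Id1 overlapped between diets, and those of Smad1 ran from 0.408 to 1.19.

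**Figure D3:**
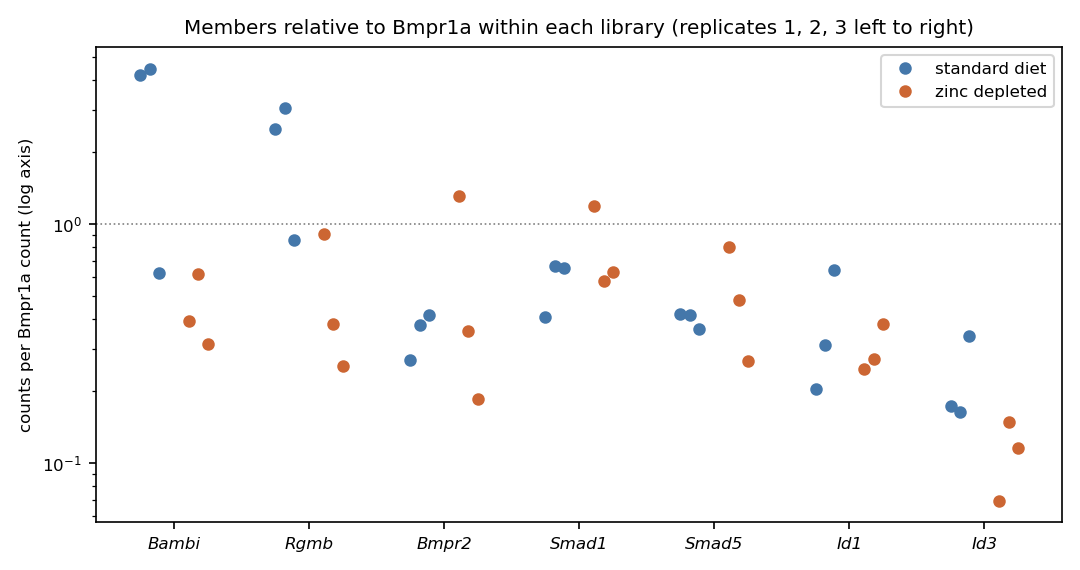
Counts of each tested member other than Bmpr1a per Bmpr1a count within each library (y axis, log scale). Replicates 1, 2 and 3 of each diet run from left to right for each gene (x axis). Bambi is at 4.21 and 4.47 in standard diet replicates 1 and 2 and between 0.314 and 0.626 in the other 4 libraries.

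Levels of different genes were compared per kilobase of transcript, over all 6 libraries. The order by mean TMM-scaled CPM per kilobase was Bambi (5.82 ± 7.08), Id1 (4.32 ± 1.62), Smad1 (3.12 ± 0.538), Bmpr1a (2.48 ± 0.555), Id3 (1.99 ± 1.00), Rgmb (1.98 ± 1.96), Smad5 (0.959 ± 0.301), Bmpr2 (0.508 ± 0.302), Smad7 (0.143 ± 0.0565) and Smad6 (0.0650 ± 0.115), each with its SD over n = 6. The mean over both diets hides a shift in the order, as Bambi was at 10.4 ± 7.91 on standard chow and 1.26 ± 0.687 on zinc depleted chow, and Rgmb at 3.33 ± 2.02 and 0.624 ± 0.283 (SD, n = 3 each). Bambi led the pooled mean but was above Id1 in only 2 of 6 libraries, and Id3 and Rgmb, and Rgmb and Smad5, each changed places in 3 of 6. Neighbours in this order differed by more than the larger of their SDs only for Smad1 above Bmpr1a (5 of 6 libraries), Smad5 above Bmpr2 (6 of 6) and Bmpr2 above Smad7 (6 of 6). These lengths are those of 1 annotated transcript per gene, so another isoform would shift the order.

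Beyond the 10 members, 59 further genes of the pathway were listed by role. Of these, 19 had no count in any library and 23 could be tested, with 14 negative and 9 positive log2 fold changes, a median of -0.20 and 0 called, against 50% negative among all genes. Among the ligands, 7 of 13 were without counts, Bmp4 among them. The most abundant was Bmp7 at 20.5, 19.9 and 17.6 TMM-scaled CPM on standard chow and 31.1, 20.2 and 20.8 on zinc depleted chow, a log2 fold change of 0.32 (adjusted p = 0.806 with edgeR, SE 0.36). Bmp2 had a log2 fold change of 0.19 (adjusted p = 0.913) and Bmp3 of -0.77 (adjusted p = 0.767). The groups overlapped for all 3, and Bmp3 was high in standard diet replicate 1 alone, at 6.79 against 1.95 and 0.781 in the other standard diet libraries.

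Of the other receptors, Acvr1, a type I receptor, was at a log2 fold change of -0.25 (adjusted p = 0.898 with edgeR) and Acvr2a, a type II receptor, at 0.07 (adjusted p = 0.966), while Acvr2b had 26, 13 and 2 counts against 4, 2 and 0 and was not tested. Neo1, which encodes neogenin, the receptor of the RGM proteins, had TMM-scaled CPM of 19.3, 13.2 and 7.92 on standard chow and 11.7, 6.94 and 4.09 on zinc depleted chow. Its step between standard diet replicates 1 and 3 was smaller than that of Rgmb, the groups overlapped, and its log2 fold change of -0.81 (adjusted p = 0.681 with edgeR, SE 0.48) was not called. Rgma had 6, 16 and 0 counts against 9, 1 and 2, Tgfbr3 had 7 counts in standard diet replicate 1 and 0 in every other library, and Hjv and Eng had no count in any.

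Smad4, the partner shared by the BMP and TGF-beta branches, was at a log2 fold change of -0.35 (adjusted p = 0.785 with edgeR), Runx1 at 0.51 (adjusted p = 0.818) and Yap1 at -0.33 (adjusted p = 0.791). Yap1 was the 1 gene of the 23 whose groups did not overlap in TMM-scaled CPM, beside 6.58% of all genes tested that were lower without overlap. All 12 intracellular inhibitors were tested, with 8 negative, 4 positive and a median of -0.36. Fkbp1a, which holds type I receptors inactive, was at 0.34 (adjusted p = 0.804), and Ppm1a, a SMAD phosphatase, at 0.20 (adjusted p = 0.868). Ctdsp2, another phosphatase of SMADs, had 37.5, 32.7 and 12.9 TMM-scaled CPM against 18.7, 7.78 and 6.98, a log2 fold change of -1.29 (adjusted p = 0.681 with edgeR, SE 0.52). Its order of libraries was like that of Rgmb, high in standard diet replicates 1 and 2, although no inhibitor was called. Tob2, named after its value was seen, was the lowest of the 12 at -1.52 (adjusted p = 0.681 with edgeR, SE 0.63).

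Of 13 extracellular antagonists, 6 had no count, noggin (Nog) among them, and the 1 tested, Twsg1, which modulates the access of BMPs to their receptors, was at -0.05 (adjusted p = 0.971 with edgeR). Fstl1 had 37, 8 and 5 counts on standard chow and 2, 2 and 0 on zinc depleted chow and Fstl3 8, 7 and 2 against 7, 3 and 1, and neither passed the filter. Of 6 further targets, Id2 was tested, at 0.41 (adjusted p = 0.877), and Atoh8, with 37, 12 and 4 counts against 9, 8 and 1, and Id4, with 5, 2 and 0 counts against 0, 0 and 0, were not. For Fstl1, Atoh8 and Id4 standard diet replicate 1 was the highest library.

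**Figure D4:**
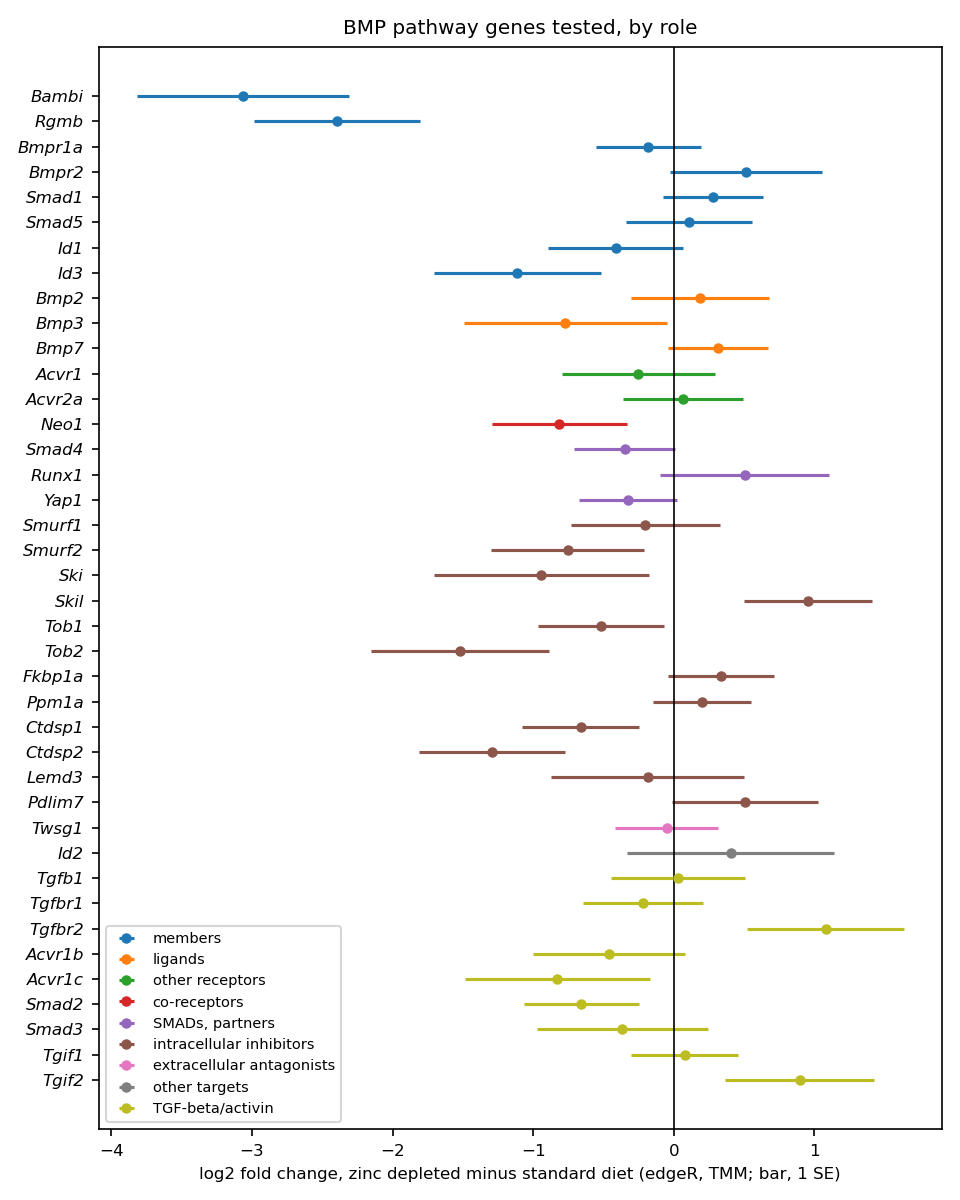
Fitted log2 fold change, zinc depleted minus standard diet (x axis), of every tested member and of the other tested genes of BMP and TGF-beta signalling by role (y axis), with bars of 1 standard error from edgeR. Bambi at -3.07 and Rgmb at -2.40 lie left of all others, of which Tob2 at -1.52 and Ctdsp2 at -1.29 come next. Bambi and Rgmb were chosen for being lower, so their bars are no test of a difference.

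The genes whose profile over the 6 libraries was most like that of Bambi were found by the root mean square difference of log2 CPM centred on each gene's mean, in which 0 is an identical profile. The 5 nearest of 9748 genes were Nlrp6 (0.33), an innate immune sensor of the gut epithelium, Vdr (0.41), the vitamin D receptor, Pou2af3 (0.53), Tent5c (0.56) and Zfp503 (0.57). Rgmb was number 11 for Bambi, with a difference of 0.69. Both were chosen for lower counts on zinc depleted chow, so their nearness to each other is in part set by that choice. The nearest other member was Id3 at number 1895, followed by Bmpr1a at 2396, Smad5 at 3374, Id1 at 5490, Smad1 at 5665 and Bmpr2 at 6641. For Rgmb the 5 nearest were Sema5a (0.32), Cachd1 (0.34), Pxylp1 (0.34), Cpt1a (0.34) and Clic6 (0.38), with Bambi at number 210, Tob2 at 38, Ctdsp2 at 61 and Neo1 at 394. All these profiles share the same 6 libraries and scaling factors, so likeness here describes these libraries only.

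Some markers of crypt stem cells had profiles like those of Bambi and Rgmb, though none of the 7 tested was called by edgeR. Axin2, a Wnt target, had TMM-scaled CPM of 25.9, 9.74 and 1.79 on standard chow and 2.88, 2.95 and 1.36 on zinc depleted chow and was number 7 in likeness to Bambi. Lgr5 had 19.7, 10.7 and 3.57 against 4.39, 5.47 and 0.511, number 91, and Rnf43 was number 290 for Bambi and 105 for Rgmb. The other 4 tested stem cell markers were farther from Bambi, with Gkn3 at number 1002, Slc12a2 at 1491, Olfm4 at 1690 and Smoc2 at 2391. Over the 8 stem cell markers the summed level was 1041 to 2294 on standard chow and 512 to 1236 on zinc depleted chow. Olfm4 made up most of every sum, at 1953, 829 and 1248 against 337, 654 and 1111. By total counts alone the sums did not overlap, on a scale on which 10.3% of all genes tested were lower without overlap. None of the 8 was lower without overlap in TMM-scaled CPM, and all 8 had a lower mean on zinc depleted chow. So did 8 of 8 enteroendocrine, 6 of 6 tuft, 7 of 8 enterocyte and 5 of 6 proliferation markers. It was 4 of 7 immune, 4 of 8 endothelial, 2 of 8 stromal and 2 of 7 goblet markers. Among all genes tested 50% had a negative log2 fold change. The tuft sum was high in standard diet replicate 2 alone, at 494 against 93.8 in replicate 1 and 27.5 in replicate 3. The sum of 6 proliferation markers was 88.4 to 151 against 52.1 to 99.95, and by total counts alone did not overlap either, with 5 of the 6 genes lower without overlap in TMM-scaled CPM beside the 6.58% among all genes tested. In TMM-scaled CPM none of the 8 Paneth cell markers had a lower mean on zinc depleted chow. Their sums of 241254 to 551684 against 320353 to 1215300 overlapped. By total counts alone the mean was lower for Itln1 (59760 against 45718 CPM) and Sox9 (50.1 against 44.9), and not for the others. The sum of 1215300 is that of zinc depleted replicate 3, whose TMM factor was 0.460. By total counts alone the sum in that library was 558812 CPM. Sums for stromal markers, 1.42 to 4.33 against 1.37 to 7.32, and endothelial markers, 3.13 to 6.82 against 1.92 to 5.79, overlapped, with Lum, Pdgfra, Cdh5, Kdr and Emcn at 0 in every library. The sums also overlapped for enterocyte (145 to 295 against 117 to 171), enteroendocrine (16.4 to 76.0 against 7.41 to 35.8), tuft (27.5 to 494 against 62.3 to 132), goblet (5077 to 8967 against 8744 to 12758) and immune markers (48.8 to 164 against 45.5 to 178). Within the goblet list, Muc2 was highest in zinc depleted replicate 1, at 3109 against 283 to 837 in the other libraries. Clca1 was highest there as well, at 49.4, while the remaining goblet markers were highest in other libraries. The part of other cells in the Bambi and Rgmb values was not tested.

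**Figure D5:**
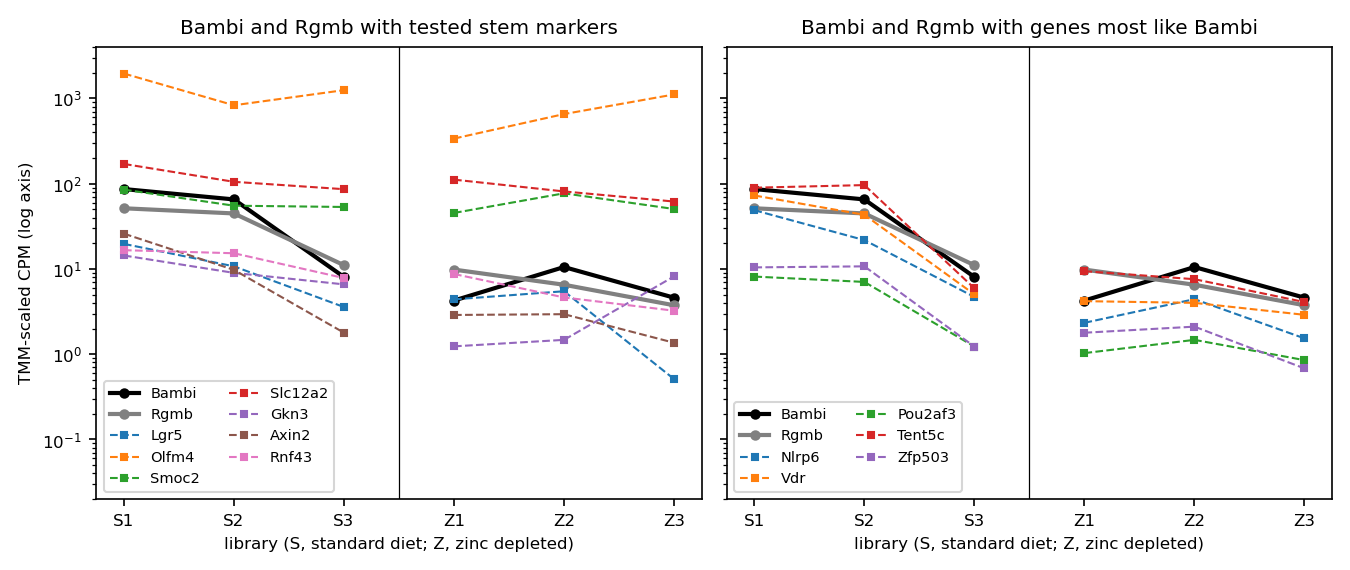
TMM-scaled CPM (y axis, log scale) by library (x axis) of Bambi and Rgmb with the 7 tested stem cell markers (left) and with the 5 genes most like Bambi (right), with lines joining libraries of a diet only to guide the eye. Axin2 is at 25.9 in standard diet replicate 1 and 1.79 in replicate 3 beside Bambi at 86.4 and 8.04, while Olfm4 and Smoc2 have no such step.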

How the data were processed

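Raw read counts per gene were deposited by the authors as 1 table with Ensembl gene identifiers and 6 libraries. The submitters' processing notes name FastQC, Trimmomatic 0.39, STAR 2.7.10a, DESeq2 and the mm39 build, and the study's methods name GENCODE M30. The counting program, the use of strand and the treatment of reads that map to several places were not given in the sources used here, so reads of a member and of an antisense gene cannot be told apart. Counted genes overlapping a member's exons (Gm17110 with Bmpr1a, Gm55294 with Smad5) had 0 counts. Genes annotated on the other strand of Bambi, Bmpr2, Smad1, Id1 and Id3 were not in the count table. Nor was a gene on the same strand as Bmpr2 that overlaps its exons.

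Symbols, positions and lengths came from GENCODE M39 (54749 of 55414 identifiers found). edgeR 4.0.16 in R 4.3.3 was fitted on the counts of all 6 libraries, with TMM scaling, its filter on low counts (9749 genes kept), the quasi-likelihood test (two-sided) and Benjamini-Hochberg adjustment over all tested genes at a threshold of 0.05. DESeq2 1.42.0, limma-voom (limma 3.58.1), RLE factors, total counts alone, scaling without 28 alpha-defensin genes, no filter, a replicate block and leaving out each library were alternatives. Centred log2 values used a prior count of 2. The scripts were tested on simulated data. Samples of a group differed by more than sampling noise (chi-square per degree of freedom 15.3 to 168).

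The members and lists were chosen with earlier results of these data known. Named genes were the 10 members, the 3 of each role list with the highest mean CPM, any called gene, and the 5 genes most like Bambi and most like Rgmb. Bmp4, Nog, Hjv and Eng (no counts), Tob2, Smad2 and Tgif2 are named outside this rule, chosen after their values were seen, and the cell type markers come from lists of their own. Promoter sequences are RefSeq's (GRCm38.p6 table), placed on GRCm39 by exact match.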

Additional observations from a re-analysis of the deposited data

How the results depend on the processing

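The count of genes called between diets was 0 with edgeR and 10 with DESeq2 (9 lower in zinc depleted libraries), 76 without the filter on low counts and 0 to 28 when 1 library was left out, with 28 without standard diet replicate 3. The number of the 6 tested members with a negative value was 3. It was 5 with total counts alone and 5 of 8 without the filter. When 1 library was left out it was 2 to 5, with 5 without zinc depleted replicate 1. Without zinc depleted replicate 2, where 7 members were tested, it was 4. For the other pathway genes it was 14 of 23, and 22 of 40 without the filter and 21 of 23 with total counts alone. When 1 library was left out, 24 to 27 of these genes were tested and 14 to 18 were negative. The 18 were of 27 tested, without zinc depleted replicate 2. The cause was not tested, although without the filter more genes are tested. Single values changed sign for Smad1 (-0.32) and Smad5 (-0.51) with total counts. When 1 library was left out, Bmpr1a ran from -0.30 to 0.041 (positive without standard diet replicate 1), Bmpr2 from -0.31 (without zinc depleted replicate 1) to 0.96, Smad5 from -0.092 (without zinc depleted replicate 1, and -0.026 without standard diet replicate 3) to 0.43 and Id1 from -0.63 to 0.0072 (positive without standard diet replicate 3). Bambi ranged from -4.08 to -2.52 and Rgmb from -3.03 to -2.04 over all 13 alternatives. Of the 6 other tested members only Id3 kept its sign in all 13, from -1.96 to -0.69. None of the 6 was called in any of the 13.

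Replicate numbers were not taken as pairs in the main fit. Deviations from group means correlated at 0.15, -0.06 and 0.25 for like numbers 1, 2 and 3, and at -0.28 to 0.25 for unlike numbers. With 3 libraries a group these values cannot decide whether samples were paired. The replicate block gave 0 calls, with Bambi at -2.65 and Rgmb at -2.26. With it edgeR had 962 genes at an unadjusted p under 0.05, beside 645 without it. Depth limits Smad6, Smad7 and other genes under about 10 counts per library. With 3 libraries a group, and standard diet replicate 3 and zinc depleted replicate 1 apart from their groups, the spread of Bambi and Rgmb on standard chow limits how well their levels are known.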

Other observations

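The TGF-beta and activin branch, which shares Smad4, Smad7 and Bambi with BMP signalling, was read as the nearest related pathway. Of 15 genes listed, 9 were tested, with 5 negative and 4 positive log2 fold changes, a median of -0.22 and 0 called by edgeR. The 3 with the highest mean CPM were Tgif1, Tgfbr2 and Tgfbr1. Tgif1, a repressor of TGF-beta targets, had TMM-scaled CPM of 14.8, 10.7 and 21.5 on standard chow and 17.2, 15.1 and 17.2 on zinc depleted chow, with a log2 fold change of 0.08 (edgeR adjusted p = 0.957), and Tgfbr1, the type I receptor, had 10.3, 10.9 and 9.93 against 12.7, 9.47 and 4.43, with -0.22 (adjusted p = 0.887). The groups overlapped for both. Smad2, a receptor-activated SMAD of this branch, had TMM-scaled CPM of 5.68, 5.63 and 8.15 on standard chow and 4.26, 3.58 and 4.43 on zinc depleted chow, lower without overlap, with a log2 fold change of -0.66 (edgeR adjusted p = 0.687). Tgif2, a relative of Tgif1, had 1.50, 1.19 and 2.57 against 3.71, 2.95 and 3.06, higher without overlap, with 0.90 (adjusted p = 0.681). Smad2 and Tgif2 were named after their values were seen, and among all genes tested 6.58% were lower and 3.51% higher without overlap. Tgfbr2, the type II receptor of TGF-beta, had 3.55, 6.60 and 16.4 against 27.7, 15.8 and 12.1, at 1.08 (adjusted p = 0.681), so its lowest libraries were standard diet replicates 1 and 2, in which Bambi was highest.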
